A study of Mus musculus with 2 samples.

Results

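The genes described here are 9 that encode intermediate filament proteins of neural cells and of the nuclear lamina, taken by symbol from the 43346 annotated gene rows of each library's table. They comprise the progenitor filaments Vim and Nes, the neuronal filaments Ina, Nefl and Nefm, the glial filament Gfap, the B-type lamins Lmnb1 and Lmnb2, and the A-type lamin Lmna. All 9 were found in both tables. They were measured by total RNA-seq, from 10 ng of RNA above a size of 200, in forebrain of healthy B6NCrl mouse embryos at 10.5 days of development. Replicate 1 was a pool of 69 embryos and replicate 2 a separate pool of 51, male and female embryos were mixed in each pool, and both libraries belong to a single group. The labels give no other tissue, stage, genotype or treatment, so genes were set against each other within a library, and the pools against each other.

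Intermediate filaments are rope-like polymers of the cytoplasm, and which genes supply them changes as neural cells mature. Neuroepithelial progenitors and radial glia build them from vimentin, with nestin as a partner that does not form filaments on its own; newborn neurons turn on internexin and the neurofilament chains, and astrocytes, which arise late in development, use GFAP. The lamins are the nuclear members of the same family: B-type lamins are made in almost all cells, whereas A-type lamins are typically low in early embryos and in neural progenitors.

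Replicate 1 held 41537304 expected counts in annotated genes and replicate 2 held 38012457. Values are in TPM, each gene's share of the transcripts after division by length, and means are given ± SD of the 2 libraries (n = 2). With 2 libraries of a single group an exact two-sided sign flip test cannot go below p = 0.5, so no test is given. Intervals are 95% and cover counting error only. The libraries were made from whole tissue, so fewer cells of a type and less RNA per cell cannot be told apart. Of the other cells such tissue could hold, all 6 erythroid genes, all 7 endothelial and all 9 mesenchymal genes were detected in both libraries. Erythroid genes summed to 17376 TPM in replicate 1 and 12868 TPM in replicate 2, led by the embryonic globins Hbb-y, Hbb-bh1 and Hba-x. Mesenchymal genes summed to 502.9 and 497.6 TPM, led by the collagens Col3a1, Col1a2 and Col1a1, and endothelial genes to 168.6 and 176.6 TPM, led by Egfl7, Kdr and Cldn5. Of 5 macrophage genes 4 were detected, led by C1qb, Csf1r and C1qa. Of a progenitor list 10 of 10 genes were detected, led by Hes5, Cdh2 and Fabp7, and of a neuronal list 12 of 12, led by Tubb3, Map2 and Stmn3. Detected means 1 TPM or more in both libraries, which 57.3% of all 21474 protein-coding genes reached. The erythroid, endothelial and mesenchymal lists were also detected in full, so detection alone cannot show the origin of the tissue.

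The levels of the 9 genes fell into 5 tiers. Vim stood highest, at 765.4 ± 4.26 TPM. Lmnb1 followed at 163.9 ± 8.73 TPM, and Lmnb2 and Nes shared the next tier at 74.6 ± 2.58 and 71.3 ± 3.01 TPM. The 3 neuronal filament genes and Lmna lay between 9.38 and 10.2 TPM, and Gfap at 0.075 TPM was close to absent. Within tiers the order was not settled: Nes lay just above Lmnb2 in replicate 1 and below it in replicate 2. The steps from Ina to Nefm, from Nefm to Lmna and from Lmna to Nefl were each smaller than their SD. The steps from Vim to Lmnb1, from Lmnb1 to Lmnb2, from Nes to Ina and from Nefl to Gfap exceeded their SD and had the same direction in both libraries. At 1 TPM or more in both libraries 8 of the 9 genes were detected, against 57.3% of the 21474 protein-coding genes, whose median was 3.27 TPM in replicate 1 and 3.16 TPM in replicate 2.

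**Figure D1:**
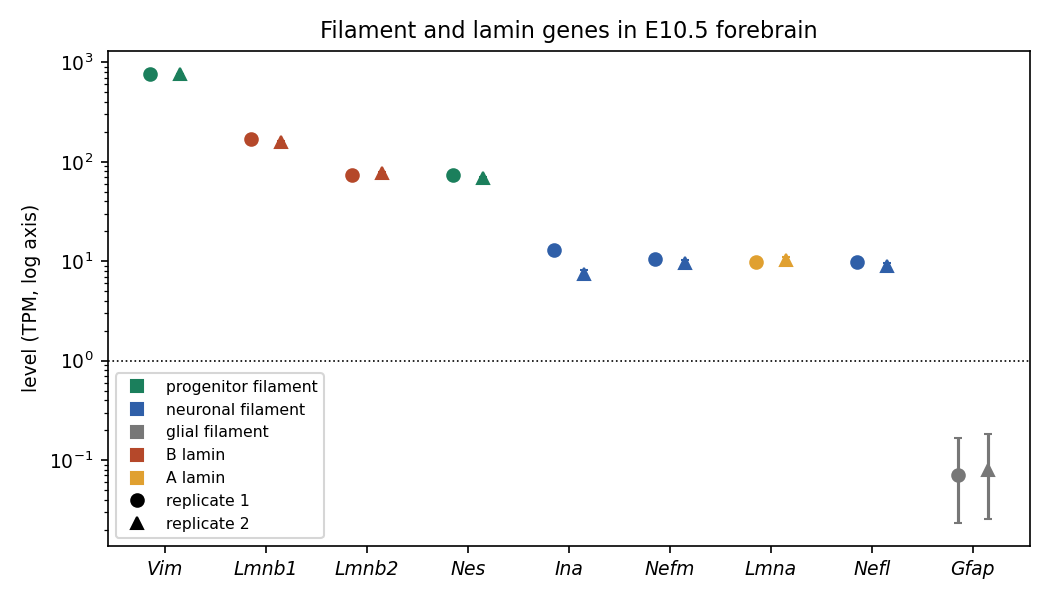
Level of each gene (TPM, log axis) in replicate 1 (circles, left) and replicate 2 (triangles, right), coloured by role; bars are 95% Poisson intervals of the expected count, mostly smaller than the symbols, and the dotted line is 1 TPM. Vim lies highest in both libraries, the neuronal filament genes and Lmna lie together near 10 TPM, and Gfap is the only gene under 1 TPM.

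Among the progenitor filaments, vimentin transcripts outnumbered those of nestin. Vim (ENSMUSG00000026728, GRCm38 chromosome 2, 13573927 to 13582826, plus strand) had 768.4 TPM in replicate 1 and 762.4 TPM in replicate 2, from 28476 and 25281 expected counts. It ranked at place 140 of the 21474 protein-coding genes by mean TPM, and the 2 libraries were nearly equal. Nes (ENSMUSG00000004891, chromosome 3, 87971078 to 87980451, plus strand) had 73.4 and 69.2 TPM, from 11856 and 9988 expected counts, above 88.8% of protein-coding genes. Vim lay 10.5-fold above Nes in replicate 1 (interval 10.2 to 10.7) and 11.0-fold above it in replicate 2 (10.8 to 11.3), a log2 difference of 3.43 ± 0.05. The size of the gap, though not its direction, depends on transcript lengths. With all counts of each gene placed on its longest coding transcript it was 2.83 ± 0.05 on the log2 scale. In expected counts without division by length it was 1.30 ± 0.05.

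Nestin was split between a pair of coding transcripts. Nes-201 encodes 1864 residues and held 48.7% of the gene's TPM in replicate 1 and 57.2% in replicate 2; Nes-203 encodes 1820 residues and held 49.0% and 39.2%. The remaining 2.28% and 3.61% went to Nes-202, a non-coding form with a retained intron. In TPM, Nes-201 had 35.8 in replicate 1 and 39.6 in replicate 2, and Nes-203 had 36.0 and 27.1. Their expected counts, not scaled for the unequal depth of the libraries, were 5969 and 5953 for Nes-201 and 5831 and 3959 for Nes-203. The authors' deposited posterior SD of these estimates was 297 to 341 counts. The deposited intervals, whose confidence level no source used here gives, ran for Nes-203 from 32.5 to 39.7 TPM in replicate 1 and from 22.2 to 31.1 TPM in replicate 2, and those of Nes-201 overlapped between the libraries. Apart from their starts, which lie 36 bases apart, the coding forms differ by 132 bases in the last exon, 44 codons that Nes-203 lacks. The segment is shown because the split between the forms depends on it; capitals mark the bases that Nes-203 lacks, on GRCm38 at chr3:87976569-87976741, plus strand.
Nes-201 segment: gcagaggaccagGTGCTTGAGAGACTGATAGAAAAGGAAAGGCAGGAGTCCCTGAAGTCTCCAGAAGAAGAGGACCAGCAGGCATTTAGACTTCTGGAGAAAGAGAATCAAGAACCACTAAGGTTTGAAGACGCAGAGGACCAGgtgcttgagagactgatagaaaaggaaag
The segment begins with GT and ends with AG. The 29 bases after it match its first 29 and the 12 bases before it match its last 12, so a run of 41 bases stands at each end. Nestin's long tail is known for repeated motifs of this kind.

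Vimentin was divided among 3 main transcripts, and the division was the same in both libraries. Vim-201, which encodes the full protein of 466 residues, held 30.5% of the TPM in replicate 1 and 29.7% in replicate 2. Vim-206, a coding form of 427 residues, held 31.5% and 31.7%. The leading form by TPM was Vim-203, at 37.3% and 37.4%, which is annotated as a non-coding transcript with a retained intron and is only 535 bases long. It drew 12.2% and 12.3% of the gene's expected counts, and 483 of its 535 bases are also in Vim-201. Together the coding forms held 62.1% and 61.6% of Vim's TPM. With all counts placed on Vim-201 the gene had 491.4 TPM in replicate 1 and 483.9 TPM in replicate 2, still the highest of the 9 genes. The stretches that set these forms apart are shown since the level of Vim turns on them. In Vim-203, at chr2:13579369-13579435 on the plus strand, capitals mark the 52 intron bases with which it starts. In the stretch of Vim-201, capitals mark the 86-base exon at chr2:13581613-13581698 that Vim-206 lacks.
Vim-203 start: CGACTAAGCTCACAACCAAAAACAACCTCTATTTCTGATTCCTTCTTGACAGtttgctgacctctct
Vim-201 exon: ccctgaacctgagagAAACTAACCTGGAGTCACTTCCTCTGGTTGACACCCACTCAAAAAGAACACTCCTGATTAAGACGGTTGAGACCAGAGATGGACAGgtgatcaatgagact
Vim-206 also starts 329 bases further downstream than Vim-201.

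**Figure D2:**
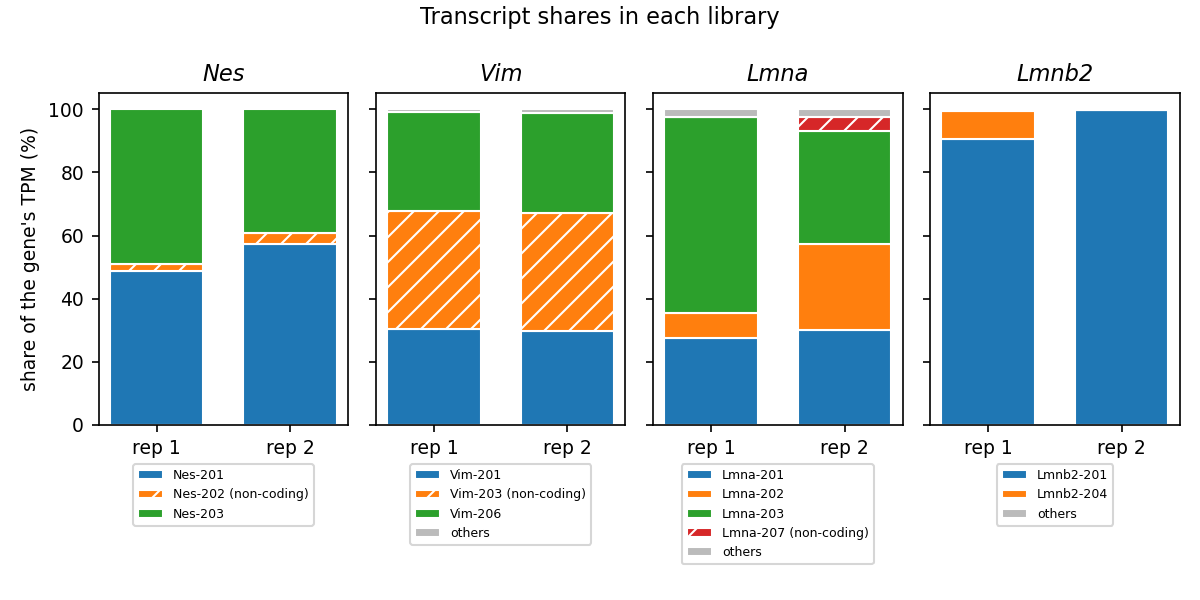
Share of each gene's TPM (percent) in its annotated transcripts, in replicate 1 (left bar) and replicate 2 (right bar); hatching marks non-coding transcripts and grey the sum of forms under 2% in both libraries. Vim kept its division between libraries, whereas Lmna-203 held 62.3% in replicate 1 and 36.0% in replicate 2.

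The neuronal filament genes were present at levels far below those of the progenitor filaments. Ina, which encodes the alpha-internexin of early neurons (ENSMUSG00000034336, chromosome 19, 47014698 to 47025327, plus strand), had 13.0 TPM in replicate 1 and 7.51 TPM in replicate 2. Nefm, the medium neurofilament chain (ENSMUSG00000022054, chromosome 14, 68082590 to 68124846, minus strand), had 10.5 and 9.62 TPM. Nefl, the light chain on which neurofilament assembly depends (ENSMUSG00000022055, chromosome 14, 68083863 to 68089095, plus strand), had 9.75 and 9.00 TPM. The chains were thus close to each other in level, and Ina alone differed clearly between the pools. The heavy chain Nefh, which joins neurofilaments as axons mature, stood apart from them at 0.09 and 0.14 TPM, on 10 and 14 counts. Peripherin (Prph), a filament of peripheral and some central neurons, was as low, at 0.16 and 0.17 TPM on 8 and 7 counts.

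Each of the 3 neuronal filament genes shares exonic bases with a gene on the opposite strand, and the sources used here do not say whether strand was used in counting. Ina overlaps Nt5c2 by 456 exonic bases, at 47014698 to 47015153. The expected counts of the pair, 1126.15 for Ina and 2781.85 for Nt5c2 in replicate 1, and 588.40 and 2555.60 in replicate 2, are fractional but add up to the whole numbers 3908 and 3144. Nefl and Nefm overlap through Nefm-202, a long form of Nefm that reaches across Nefl, by 1108 exonic bases, and their counts add up to 1828 in replicate 1 and 1513 in replicate 2. Fractions of this kind arise where reads are divided between overlapping genes. The deposited posterior SD of the division was 5.29 and 3.41 counts for Ina and 5.03 and 2.39 counts for Nefl and Nefm. Nefm-202 drew 1.56% of Nefm's TPM in replicate 1 and was listed at 0 in replicate 2. If strand was not used, reads of the 2 genes in an overlap could not be told apart, so these levels are uncertain to that extent.

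Gfap (ENSMUSG00000020932, chromosome 11, 102887336 to 102900912, minus strand), the filament of astrocytes, drew 5 expected counts in each library, which is 0.07 TPM in replicate 1 (Poisson interval 0.0232 to 0.167) and 0.08 TPM in replicate 2 (0.0257 to 0.184). The level is close to the 0.0428 and 0.0474 TPM that 3 counts would give, and both intervals lie below 1 TPM. The gene lies within the bounds of a long non-coding gene on the opposite strand, Gm26668, without sharing exons with it. Other astrocyte genes were mixed: 4 of 7 were detected in both libraries, near the 57.3% of all protein-coding genes. Gja1, a gap junction gene that neural progenitors also express, had 151.0 and 165.2 TPM. Aldoc and the glutamate transporter Slc1a2 stood at 2.61 ± 0.389 and 2.26 ± 0.0354 TPM. Of the rest of the list, Aldh1l1 had 1.48 and 1.8 TPM, Gjb6 had 0.5 and 0.54 TPM and the water channel Aqp4 had 0.47 and 0.37 TPM. The calcium-binding protein S100b was listed at 0 in replicate 1 and had 3 counts in replicate 2. Aldh1l1, Gjb6, Aqp4 and S100b were chosen for naming after their values were seen.

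Summed by role, the progenitor filaments made up 96.2% of the TPM of the 6 cytoplasmic filament genes in replicate 1 and 96.9% in replicate 2, the neuronal filaments 3.80% and 3.05%, and Gfap 0.0080% and 0.0093%. Vim gave most of the progenitor sum, 765.4 of 836.7 TPM by mean. Whether part of it came from the mesenchymal, endothelial or other non-neural cells of the tissue was not tested, so the sum is not a measure of progenitor cells. Progenitor filaments lay 25.3-fold above neuronal ones in replicate 1 (interval 24.4 to 26.3) and 31.8-fold above them in replicate 2 (30.5 to 33.3), a log2 difference of 4.83 ± 0.23. This gap was many times the spread between libraries, and it was 4.24 ± 0.22 with all counts on the longest coding transcripts and 3.92 ± 0.21 without division by length. Neuronal filaments in turn lay 475-fold above Gfap in replicate 1 (203.1 to 1463) and 327-fold in replicate 2 (140 to 1007), a log2 difference of 8.62 ± 0.38. Between progenitor filaments and Gfap the log2 difference was 13.45 ± 0.15. The 5 counts of Gfap in each library limit both of these values. With the deposited posterior mean TPM they were 6.85 ± 0.33 and 11.68 ± 0.096. By that measure Gfap-203, a non-coding form of 356 bases with 0 expected counts in both libraries, held 58.44% and 58.47% of Gfap's TPM.

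Of 12 further intermediate filament genes, 5 were detected in both libraries, against 57.3% of all protein-coding genes. The keratin pair of simple epithelia led: Krt8 had 32.8 TPM in replicate 1 and 30.4 TPM in replicate 2, and Krt18 had 29.9 and 32.5 TPM. Each lay above every neuronal filament gene in both libraries. Krt19, another simple-epithelium keratin, stood at 4.56 ± 0.0849 TPM, and Krt14, a keratin of basal epidermis, at 1.67 ± 0.0283 TPM. Its partner Krt5 had 0.31 and 0.35 TPM. Desmin (Des), the filament of muscle and of some perivascular cells, had 2.21 TPM in replicate 1 and 3.66 TPM in replicate 2. The 2 beaded filament genes of the lens, Bfsp1 and Bfsp2, stood at 0.635 ± 0.00707 and 0.59 ± 0.113 TPM. Synm and Sync, which encode partners of other filament proteins such as desmin, stood at 0.515 ± 0.0636 and 0.375 ± 0.0495 TPM. All 6 genes of the surface epithelium list, which also holds Krt8 and Krt18, were detected, with Cldn6 at 24.7 ± 2.53 TPM, and summed to 133.3 TPM in replicate 1 and 126.2 TPM in replicate 2; whether the keratins come from such cells was not tested.

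Plakins tie intermediate filaments to other parts of the cell. Of 6 plakin genes 3 were detected in both libraries, against 57.3% of all protein-coding genes. They were Macf1, which links microtubules to actin, at 38.7 ± 3.51 TPM, Plec, the main linker of vimentin filaments, at 13.96 ± 1.49 TPM, and Dst at 9.54 ± 0.375 TPM. Those of desmosomes and of the cornified envelope, Dsp, Ppl and Evpl, did not reach 1 TPM in both, and were chosen for naming after their values were seen. By mean level the nearest listed gene to Ina, Nefl, Nefm and Lmna was Dst. To Nes and Lmnb2 it was Tor1a, from a list of lamina and envelope partners, at 74.9 ± 3.38 TPM.

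The nuclear lamina was dominated by B-type transcripts. Lmnb1, lamin B1 (ENSMUSG00000024590, chromosome 18, 56707813 to 56753424, plus strand), had 170.0 TPM in replicate 1 and 157.7 TPM in replicate 2, above 95.3% of protein-coding genes. Lmnb2, lamin B2 (ENSMUSG00000062075, chromosome 10, 80901203 to 80918245, minus strand), had 72.8 and 76.5 TPM. The 2 genes differed in the same direction in both pools: Lmnb1 lay 2.34-fold above Lmnb2 in replicate 1 (interval 2.27 to 2.41) and 2.06-fold above it in replicate 2 (2.00 to 2.13), a log2 difference of 1.13 ± 0.13. Lmna, from which lamins A and C are both spliced (ENSMUSG00000028063, chromosome 3, 88480147 to 88509956, minus strand), had 9.81 and 10.2 TPM on 589 and 518 counts. Lmna lies 499.7 kb from Nes on the same chromosome.

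The B lamins together had 242.8 TPM in replicate 1 and 234.1 TPM in replicate 2, which was 96.1% and 95.8% of all lamin TPM. They lay 24.8-fold above Lmna in replicate 1 (interval 22.8 to 26.9) and 23.0-fold above it in replicate 2 (21.1 to 25.1), a log2 difference of 4.58 ± 0.08. With all counts on the longest coding transcripts, where Lmna had 6.96 TPM in replicate 1 and 6.79 TPM in replicate 2, the gap was 5.09 ± 0.0068. It was larger than the spread between libraries in either case. Lmnb1 was read almost entirely as its coding form of 588 residues, with 97.2% and 97.7% of its TPM. The full coding form of Lmnb2, of 615 residues, held 90.6% of its TPM in replicate 1 and 99.9% in replicate 2. The difference was a coding form of 596 residues, at 8.98% in replicate 1 and listed at 0 in replicate 2; its deposited posterior SD was 290 and 234 counts, and the deposited intervals of the 2 libraries overlapped, at 2.65 to 12.9 and 0.0942 to 9.65 TPM.

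Genes that process and anchor lamins were measured beside them. Newly made B lamins and prelamin A receive a farnesyl group at a cysteine near their end, lose the residues behind it and are methylated, and prelamin A is then cut again by the protease ZMPSTE24. All 5 genes of this path were detected. Rce1, the protease that removes the end residues, had 58.8 TPM in replicate 1 and 58.9 TPM in replicate 2, and the farnesyltransferase subunits Fnta and Fntb stood at 58.5 ± 0.721 and 38.1 ± 0.509 TPM. Zmpste24 had 28.6 and 26.9 TPM, and the methyltransferase Icmt 19.8 and 22.2 TPM. Each of the 5 thus had a higher TPM than Lmna in both libraries. Of 14 genes for lamina and envelope partners 12 were detected, against 57.3% of all protein-coding genes. Banf1, a small chromatin-binding protein of the envelope, led at 573.6 ± 0.0424 TPM, followed by Tmpo, which encodes the LAP2 proteins, at 194.1 ± 7.73 TPM and by Lbr, the lamin B receptor, at 184.1 ± 6.90 TPM. Lbr had 179.2 and 189.0 TPM, near the level of Lmnb1. The nesprin genes Syne1 and Syne3 stayed under 1 TPM, while Syne2 had 90.7 and 81.2 TPM; these 3 were chosen for naming after their values were seen.

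**Figure D3:**
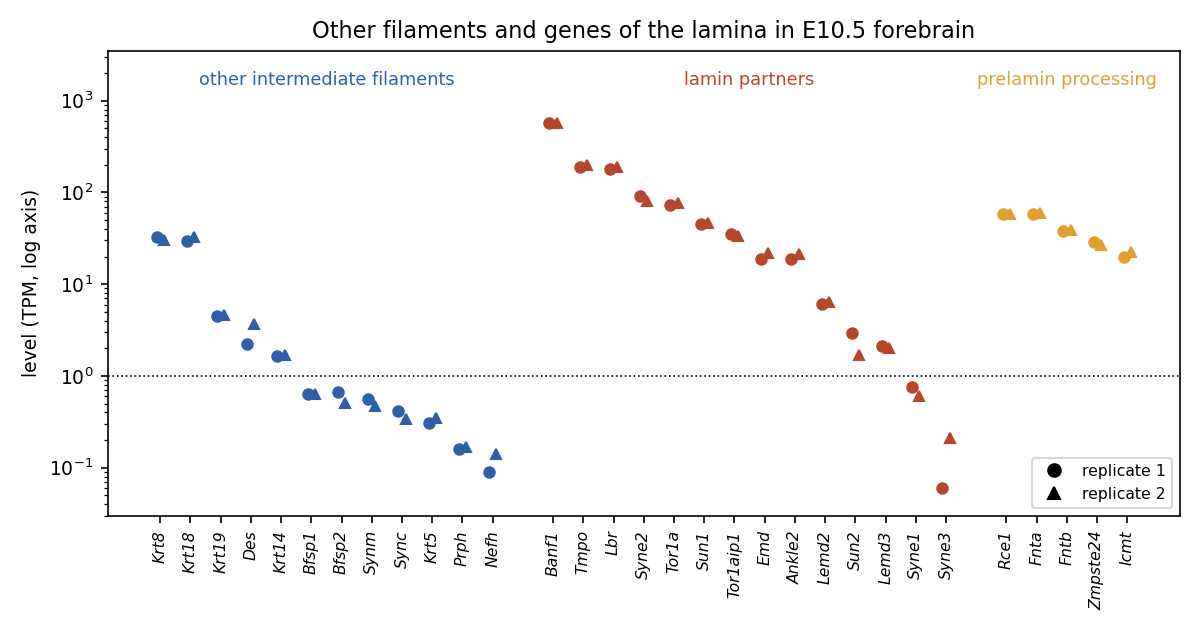
Levels (TPM, log axis) of other intermediate filament genes, lamin partners and prelamin processing genes in replicate 1 (circles, left) and replicate 2 (triangles, right), ordered by mean within each list; the dotted line is 1 TPM. Krt8 and Krt18 lead the other filaments, and all 5 processing genes lie between 19.8 and 59.0 TPM.

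Lmna transcripts were spread over lamin A, lamin C and shorter forms, and the estimated shares differed between the pools, with overlapping deposited intervals. Lamin C (Lmna-203, 574 residues) held 62.3% of the gene's TPM in replicate 1 and 36.0% in replicate 2. Lamin A (Lmna-201, 665 residues) held 27.6% and 30.1%. Lmna-202, with its own first exon and 462 residues, the coding length of the form known as lamin C2 in male germ cells, held 7.78% and 27.1%. Lmna-202 was thus higher and Lmna-203 lower in replicate 2 than in replicate 1. The counts behind them are few: Lmna-203 drew 325 and 176 counts and Lmna-202 drew 30.4 and 99.1, with posterior SDs of 32.6 and 34.1 and of 23.6 and 25.5 counts. The deposited intervals of the 2 libraries overlapped for both forms, at 4.48 to 7.14 TPM in replicate 1 and 2.20 to 5.10 TPM in replicate 2 for Lmna-203, and at 4.43e-05 to 2.07 TPM and 1.20 to 4.09 TPM for Lmna-202. Lamin C lay 2.26-fold above lamin A in replicate 1 and 1.20-fold above it in replicate 2, a log2 difference of 0.72 ± 0.64 that barely exceeded its SD. With Lmna-202 counted with Lmna-203, a choice made after seeing the data, the summed shares were 70.1% and 63.2% and the difference was 1.21 ± 0.19. The remaining Lmna forms each held under 5%.

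Lamins A and C share 1704 coding bases, or 568 residues, after which lamin C adds 6 residues and lamin A adds 97. The point where they part is shown on the minus strand of chromosome 3, ending for lamin C at chr3:88483300-88483341; capitals mark the first bases after it.
Lmna-201 (lamin A): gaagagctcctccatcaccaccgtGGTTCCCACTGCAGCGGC
Lmna-203 (lamin C): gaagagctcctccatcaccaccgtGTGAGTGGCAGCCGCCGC
In the lamin C line the capitals run to the last codon before the stop. Of the transcripts, 1248 bases of Lmna-201 and 113 bases of Lmna-203 are not in the other, and only reads over those stretches or the junctions tell the forms apart. The ends of the coding sequences show which forms carry the farnesylated cysteine. Capitals mark the last 4 codons before the stop codon, for the full form of lamin B2 at chr10:80902862-80902891 on the minus strand.
Lmna-201 end (lamin A): agccagagctcccagaacTGCAGCATCATG
Lmnb2 end (lamin B2): aggactacctcaaggggcTGCCGACTGATG
Lmna-203 end (lamin C): catcaccaccgtgtgagtGGCAGCCGCCGC
The first of the 4 codons encodes cysteine in lamin A and in lamin B2 and does not in lamin C, which is not farnesylated. By TPM of these transcripts, the form with the cysteine was at 2.71 and 3.06 TPM for Lmna-201 and at 65.9 and 76.3 TPM for the full form of Lmnb2.

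Between the pools, 1 of the 8 members with a mean of 50 counts or more differed by over 1.5-fold: Ina, which was higher in replicate 1. Among all 13842 genes with such counts, 2.02% were higher by over 1.5-fold in replicate 1 and 0.91% in replicate 2. Scaled by TMM, Ina was 1.74-fold higher in replicate 1 than in replicate 2 (interval 1.58 to 1.93), and of the 4490 genes with mean counts of 500 to 2000, 9 lay further from equality. The other members were close to equal. Nefm was 1.10-fold (1.00 to 1.22) and Nefl 1.09-fold (0.990 to 1.21) higher in replicate 1. Nes and Lmnb1 were each 1.08-fold higher and Vim 1.02-fold. Lmna was at 1.035-fold (0.918 to 1.17), which turned to a log2 ratio of -0.05 with TPM as deposited. Lmnb2 was at 0.955-fold of replicate 2 (0.923 to 0.988), and Gfap, on 5 counts each, at 0.910-fold (0.209 to 3.95). Both pools are a single library, so these ratios have no replicate check.

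The neuronal markers moved in the same direction as Ina. All 12 genes of the neuronal list were higher in replicate 1, none was at 0, the list summed to 505.3 TPM in replicate 1 and 388.2 TPM in replicate 2, and its median ratio was 1.34-fold. Over all 13842 genes with a mean of 50 counts or more, the median log2 ratio was -0.002. Tubb3, the neuronal tubulin, was 1.27-fold higher (interval 1.24 to 1.31), Map2 1.27-fold and Stmn3 1.35-fold. Of the 12, 4 were over 1.5-fold, against 2.02% of those 13842 genes with replicate 1 higher. They were Mapt at 2.40-fold, Dcx at 1.88-fold, Stmn2 at 1.66-fold and L1cam at 1.53-fold, all named after their values were seen. Mapt rested on 399 and 151 counts and L1cam on 390 and 232. The share of all genes higher in replicate 1 by any amount was not computed. The progenitor list had a median ratio of 1.00-fold, with Fabp7 at 1.64-fold. The erythroid list moved too, with 6 of 6 genes higher in replicate 1 and a median of 1.33-fold. Over their genes with 50 counts or more, the median was 1.24-fold for the astrocyte list, with 3 of 5 genes higher in replicate 1. It was 1.12-fold for plakins, with 6 of 6 higher, and 1.125-fold for surface epithelium, with 4 of 6 higher. The medians of the mesenchymal, macrophage and endothelial lists were 1.02-fold, 0.992-fold and 0.958-fold. The part of these cells in the ratio of Ina was not tested.

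**Figure D4:**
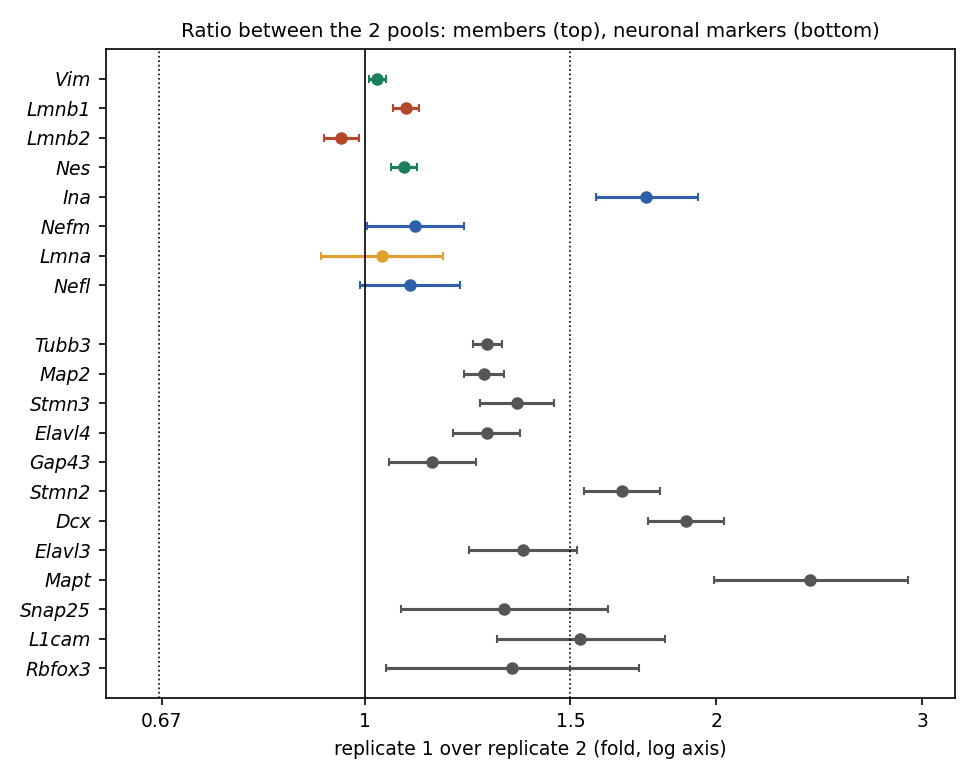
Replicate 1 over replicate 2 (fold, log axis, TMM-scaled) for the 8 members with 50 counts or more (top, coloured by role) and the 12 neuronal markers (bottom, grey), each with its 95% binomial interval; the solid line is equality and dotted lines mark 1.5-fold in either direction. Ina at 1.74-fold lies among the neuronal markers, whereas the other members lie between 0.955-fold and 1.10-fold.

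Of the other filaments, desmin was the one gene over 1.5-fold among the 5 with a mean of 50 counts or more. It was at 0.637-fold of replicate 2 (interval 0.515 to 0.788), on 152 counts in replicate 1 and 217 in replicate 2. Among all 13842 genes with such counts, 0.91% were higher by over 1.5-fold in replicate 2 and 2.02% in replicate 1. No gene of the prelamin processing list or of the lamin partners with 50 counts or more passed 1.5-fold, and their median ratios were 0.992-fold and 1.00-fold.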

How the data were processed

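Per the labels, total RNA was extracted by the mirVana method, spike-ins were added, and a kit manual for very low input is listed; no source used here gives priming or strand. Per the submitters' processing notes, the tables were made on assembly mm10 with genome annotation M4; the aligner and quantification tool are not given. The authors deposited expected counts (estimated reads, not normalized), TPM, scaled over 69691 gene rows with spike-ins among them, and, per transcript, its percent of the TPM of its gene, per the file headers. Spike-ins took 7.83% and 7.01% of TPM. Effective lengths were length minus 99 bases in 100% of rows with one (tolerance 0.05 bases), so TPM carries no further fragment-length correction.

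Members were matched by Ensembl identifier; positions and transcript names are from GENCODE M21, in which 28 of the members' 29 transcripts had the deposited length. Expected counts were rounded for edgeR 4.0.16 (R 4.3.3), used for TMM factors over 16637 genes with 10 counts or more in both libraries, and for DESeq2 1.42.0 size factors. Folds of single genes between libraries used unrounded counts. Log2 ratios of counts, list medians and the 1.5-fold limit used unrounded counts plus 0.5. Exact binomial intervals of ratios and Poisson intervals of levels used rounded counts. Only TMM scaling and the 1.5-fold limit between libraries were tested on simulated data. Python 3.11.15 did the rest. The members and gene lists were chosen with earlier results of these data known. Named genes are the members, all other filament and prelamin processing genes, the 3 highest of each other list and the listed gene nearest to a member in level; genes overlapping a member are named for their position, and others are said to be chosen after their values were seen. The spread between the 2 libraries includes technical spread. The alternatives were posterior mean TPM, counts without division by length, a pseudocount of 1 TPM, other detection limits and scalings, and leaving out each replicate; placing all counts on the longest coding transcript was added after seeing the data.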

Additional observations from a re-analysis of the deposited data

How the results depend on the processing

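No contrast between classes changed direction under any alternative, but several changed in size (log2 values). Without division by length, progenitor over neuronal filaments was 3.92, progenitor over glial 12.88, B lamins over Lmna 5.05, Lmnb1 over Lmnb2 0.79 and Vim over Nes 1.30. With all counts on the longest coding transcript the first 3 were 4.24, 12.86 and 5.09, and Vim over Nes was 2.83. With posterior mean TPM, neuronal over glial was 6.85, progenitor over glial 11.68 and B lamins over Lmna 4.50. With a pseudocount of 1 TPM these were 4.83, 9.61 and 4.44. Against a limit of 10 TPM 4 members were detected, and the share of all genes at that limit was not computed. Ina (12.96 and 7.51 TPM in replicates 1 and 2), Nefm (10.51 and 9.62) and Lmna (9.81 and 10.19) lay on either side of this limit. Nefl (9.75 and 9.00) lay just below it. Vim-203 held 12.2% of Vim's expected counts. The causes were not tested, beyond the change of length or added value itself. All 45 ratios of members between libraries, under 5 alternatives, stayed within their counting intervals; that of Lmna, 0.05 with TMM, was -0.05 with TPM as deposited. With either replicate left out, lamin C over lamin A was 0.26 to 1.17. Ina was the only member past 1.5-fold in each. The 5 counts of Gfap limit its contrasts, and with 1 library a pool no ratio between pools has a replicate check. No paired analysis was possible because both libraries belong to 1 group.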
